A study of Homo sapiens and Mus musculus with 16 samples.

Results

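The chaperonin genes examined here were the 8 members that encode subunits of the cytosolic chaperonin CCT (CCT2, CCT3, CCT4, CCT5, CCT6A, CCT7, CCT8 and TCP1) and the 2 that encode the mitochondrial chaperonin HSP60 (HSPD1) and its lid HSP10 (HSPE1). All 10 were found by symbol in the human table of 58713 genes and, under the same symbols in mouse case, in the mouse table of 53796 genes. All 10 passed the filter on low values in each table, among 14450 genes tested in the human line and 11341 in the mouse line. They were chosen by their FPKM differences between knockout and wild type, already known in both tables, so these differences are given as a description, and counts of members past a threshold support nothing. Total RNA was sequenced from human MDA-MB-231 cells, an established triple-negative breast cancer line, and from mouse CT26 cells, established from a colon carcinoma. Each line had 4 libraries labelled PD-L1 wild type and 4 labelled PD-L1 knockout, the latter from cells edited with CRISPR delivered by lentivirus. Not stated in the labels are whether the edited cells were a pool or 1 clone, which vector the wild type cells received, and whether a group's libraries stem from separate cultures. The adjusted p-values given for other genes therefore rest on differences among libraries alone, and this spread may be technical.

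Chaperonins are double-ring machines that enclose an unfolded protein and let it fold away from other proteins, with ATP driving each cycle. CCT, also called TRiC, works in the cytosol, is built from different subunits that each have a fixed place in the ring, and is known for folding actin, tubulin and several WD40-repeat proteins. HSP60 works in the mitochondrial matrix, where HSP10 closes its chamber over proteins that have been imported. Proliferating tumour lines are known to make both in quantity.

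Levels were deposited as FPKM, the fragments of a gene scaled to transcript length and library size. Levels can therefore be compared between genes of 1 table. No source used here says how the library size was set. The 2 tables were normalized separately and no level was compared between lines. Depth relative to wild type replicate 1, read from the low FPKM values, was between 0.941 and 1.21 for MDA-MB-231 wild type libraries and between 0.509 and 0.779 for the knockout ones. In CT26 the bounds were 0.799 and 1.14, and 0.926 and 2.49. CD274, which encodes PD-L1, had 12.31, 11.24, 12.46 and 12.79 FPKM in the MDA-MB-231 wild type and 9.93, 11.64, 8.19 and 12.49 FPKM in the knockout (limma adjusted p = 0.166, and 0.0157 after upper-quartile scaling). The groups overlapped, and since an edit in a coding exon need not lower the transcript, this gene does not check the labels. In CT26, Cd274 was lower in the knockout, at 1.41 ± 0.127 against 0.526 ± 0.0552 FPKM (SD, n = 4 and 4, limma adjusted p = 1.4153e-04), with no overlap. These levels are near the floor. Cd274 passed the filter on low values through the wild type libraries alone, so nothing is read from its p-value. Of 6 leukocyte markers, PTPRC, CD3E, CD79A and ITGAM were below 1 FPKM in every MDA-MB-231 library, and their mouse counterparts were below 1 FPKM in every CT26 library. The rest of the list was CD68 and LCP1. CD68 had means of 105 FPKM in the MDA-MB-231 wild type and 85.9 in the knockout, and LCP1 had 0.136 and 77.0. Cd68 had 5.30 and 3.55 FPKM in CT26, where Lcp1 was below 1 FPKM in every library.

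In MDA-MB-231 all 10 chaperonin transcripts were more abundant in the knockout libraries. The summed FPKM of the 8 CCT subunits was 1916 ± 135 in the wild type and 3895 ± 154 in the knockout (SD, n = 4 and 4), 2.03 times as much. The members' log2 fold changes of FPKM + 1 ranged from 0.58 for CCT6A to 1.38 for CCT2, with a median of 1.11, where the median over all genes tested was 0.18. For each member the lowest knockout library lay above the highest wild type library. The limma threshold (adjusted p below 0.05) was passed upwards by 10 of 10 members and by 42.6% of all genes tested (68.2% in either direction), and groups that did not overlap upwards were seen in 10 of 10 members and in 39.1% of all genes. Because this contrast chose the members, nothing is read from those counts. Rescaling each library to the upper quartile of its genes moved the median of all genes to -0.01, and the share of calls that were higher from 62.4% to 49.4%, so each member's value is also given relative to the median gene. Other markers moved along with the chaperonins in this line. Wild type libraries held 2490 to 2597 summed FPKM of 7 epithelial markers, against 578 to 607 in the knockout libraries. The ranges were 2472 to 2650 against 3167 to 3323 for 7 mesenchymal markers. That list did not move together, as the mean of VIM went from 1113 to 2545 FPKM while CD44 went from 1093 to 321 and FN1 from 199 to 116. For 6 leukocyte markers the ranges were 101 to 110 against 146 to 173, the wild type sum being mostly CD68. Within the leukocyte list LCP1, an actin-bundling protein of leukocytes and many tumour cells, went from 0.136 to 77.0 FPKM. The part of these shifts in the chaperonin values was not tested. In bulk RNA, fewer cells of a type and less RNA per cell cannot be told apart.

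CCT2 (chr12:69585334-69601570, plus strand, GENCODE 29 on hg38) encodes the beta subunit of CCT and had the highest ratio between the groups. It stood at 117, 127, 120.1 and 129 FPKM in the wild type libraries and at 335, 343, 299 and 315 FPKM in the knockout libraries. The lowest knockout library was thus well above the highest wild type one. The mean went from 123 ± 5.54 to 323 ± 19.8 FPKM (SD, n = 4 and 4), a log2 fold change of 1.38 with an SE of 0.05, or 1.20 relative to the median gene. The 250 bases before its first listed start hold a match to the ETS core CCGGAAG, here on the opposite strand. This stretch (RefSeq, GRCh38.p14, chr12:69585209-69585458, plus strand) is shown because CCT2 is the only member among the 9 in the RefSeq table with that match, which is given in capitals:
CCT2: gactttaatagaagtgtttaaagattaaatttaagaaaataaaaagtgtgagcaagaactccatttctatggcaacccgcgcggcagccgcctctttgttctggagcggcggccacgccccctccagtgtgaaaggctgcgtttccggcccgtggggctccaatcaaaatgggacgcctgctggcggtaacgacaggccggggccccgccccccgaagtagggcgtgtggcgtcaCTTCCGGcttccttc
That core is present in 10.3% of the 35116 promoter stretches in the RefSeq table, each of 300 bases from 250 before to 50 after a start, when both strands are searched.

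TCP1, CCT7, CCT4 and CCT5 came next in the ring by ratio. TCP1 (chr6:159778498-159789749, minus strand), the alpha subunit, had 133, 147, 139.9 and 147 FPKM in the wild type and 327, 356, 333 and 331 FPKM in the knockout. These groups were far apart and each was tight, with a log2 fold change of 1.24 (SE 0.05) and 1.06 relative to the median gene. CCT7 (chr2:73233420-73253021, plus strand), the eta subunit, had 367, 422, 432 and 411 FPKM in the wild type and 934, 961, 945 and 957 FPKM in the knockout. The knockout libraries lay within a narrow band, and the log2 fold change was 1.22 (SE 0.05), 1.04 relative to the median gene. CCT4 (chr2:61868089-61888804, minus strand), the delta subunit, had 133, 171, 149 and 156 FPKM in the wild type and 361, 377, 323 and 345 FPKM in the knockout. Its wild type libraries were more spread, yet none came near the knockout, and the log2 fold change was 1.21 (SE 0.08), 1.03 relative to the median gene. CCT5 (chr5:10249921-10266412, plus strand), the epsilon subunit, had 374, 378, 391 and 405 FPKM in the wild type and 781, 851, 845 and 802 FPKM in the knockout. The groups did not overlap, with a log2 fold change of 1.08 (SE 0.04), 0.90 relative to the median gene.

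The remaining 3 CCT genes had lower ratios. CCT8 (chr21:29055805-29073797, minus strand), the theta subunit, had 122, 137, 136 and 136 FPKM in the wild type and 251, 292, 242 and 247 FPKM in the knockout, a log2 fold change of 0.95 (SE 0.07) and 0.77 relative to the median gene. CCT3 (chr1:156308968-156367873, minus strand), the gamma subunit, had 214, 246, 247 and 250.4 FPKM in the wild type and 346, 383, 362 and 355 FPKM in the knockout. In both genes wild type replicate 1 was the low library and the groups stayed apart. For CCT3 the log2 fold change was 0.60 (SE 0.06), 0.42 relative to the median gene and 0.38 after upper-quartile scaling. CCT6A (chr7:56051630-56063989, plus strand), the zeta subunit, had 261, 389.6, 323 and 356 FPKM in the wild type and 458, 558, 512 and 451 FPKM in the knockout. It was the most variable member, with a coefficient of variation of 16.6% in the wild type, and its log2 fold change was 0.58 (SE 0.12), 0.40 relative to the median gene and 0.37 after upper-quartile scaling.

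**Figure D1:**
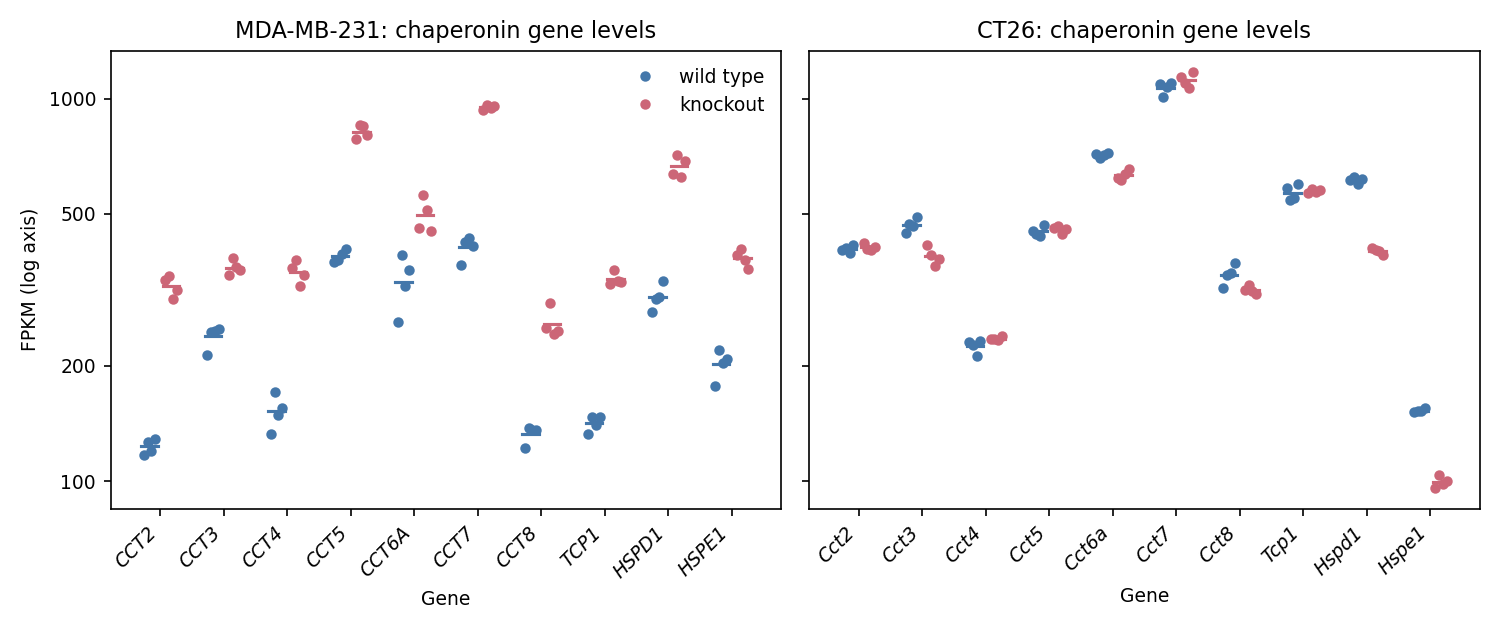
Level of each chaperonin gene in FPKM on a log axis, with a point for each library and a line at each group mean, wild type in blue and knockout in red, MDA-MB-231 on the left and CT26 on the right. In MDA-MB-231 the red points sit above the blue ones for all 10 genes, while in CT26 only Hspd1, Hspe1, Cct3 and Cct6a have red points wholly below the blue ones.

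The mitochondrial pair was higher in the MDA-MB-231 knockout as well. HSPD1 (chr2:197486581-197516737, minus strand), which encodes the HSP60 ring subunit, had 277, 299, 302 and 334 FPKM in the wild type and 636, 713, 623 and 687 FPKM in the knockout. The groups did not overlap, and the log2 fold change was 1.13 (SE 0.07), 0.95 relative to the median gene. HSPE1 (chr2:197499994-197503457, plus strand), which encodes the HSP10 lid, had 177, 220.6, 204 and 208 FPKM in the wild type and 390.1, 404, 378 and 359 FPKM in the knockout. Here too every knockout library was above every wild type library, with a log2 fold change of 0.92 (SE 0.07) and 0.74 relative to the median gene. The ratio of HSPE1 to HSPD1 FPKM was 0.640, 0.739, 0.673 and 0.623 in the wild type and 0.614, 0.566, 0.606 and 0.522 in the knockout. The lid's transcript was thus a lower multiple of the ring's in every knockout library than in any wild type library.

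HSPD1 and HSPE1 lie head to head and are read from a shared stretch between them. Sequence from both strands is shown because both genes were higher in the MDA-MB-231 knockout and both lower in that of CT26. It also holds matches to an E-box and to the heat-shock element. The E-box lies in the overlapping windows of HSPE1 and of HSPD1's first listed start. Heat-shock matches were found only in the window of HSPD1's second listed start, not in those windows. The HSPD1 stretch (RefSeq, GRCh38.p14, chr2:197499841-197500090, minus strand) is the 250 bases before its second listed start. Its capitals mark 2 overlapping matches to the heat-shock element, searched on both strands as TTC, GAA and TTC in a row with 2 free bases between neighbours. The HSPE1 stretch (chr2:197500279-197500378, plus strand) is part of the bases before its start, with the E-box CACGTG in capitals:
HSPD1: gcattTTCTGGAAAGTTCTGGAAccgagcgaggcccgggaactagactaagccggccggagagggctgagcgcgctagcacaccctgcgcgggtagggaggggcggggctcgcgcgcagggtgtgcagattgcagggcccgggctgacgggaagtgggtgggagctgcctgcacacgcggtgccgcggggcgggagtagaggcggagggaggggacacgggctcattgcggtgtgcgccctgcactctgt
HSPE1: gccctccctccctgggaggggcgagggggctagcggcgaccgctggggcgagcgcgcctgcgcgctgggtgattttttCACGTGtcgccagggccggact
Of the 10 members, 9 had an entry in the RefSeq table, with 12 entries in all, and CCT6A had none. The heat-shock element was found in 1 member, HSPD1, and in 0.49% of all 35116 entries. The E-box was found in 2 members, HSPD1 and HSPE1, whose windows overlap, and in 7.26% of entries. CCAAT was found in 4 members and 34.6% of entries, and the GC box GGGCGG in 7 members and 45% of entries. These are matches of letters and do not show binding.

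In CT26 the cytosolic and mitochondrial chaperonins parted. The summed FPKM of the 8 CCT subunits was 4240 ± 110.5 in the wild type and 4128 ± 78.8 in the knockout (SD, n = 4 and 4), a ratio of 0.974. Hspd1 and Hspe1 stood at 65.2% and 65.1% of their wild type means in the knockout. The median log2 fold change was -0.06 for the 10 members, 0.02 for the 8 CCT genes and -0.06 for all genes tested. The limma threshold was passed downwards by 5 of 10 members, Hspd1, Hspe1, Cct3, Cct6a and Cct8, and by 33.4% of all genes tested. The remaining 5 members did not pass it, where 55.8% of all genes passed in 1 direction or the other. Groups that did not overlap were lower in the knockout for 4 members, against 31.1% of all genes, and higher for 1 member, Cct4, against 20.3%. As in the human line, this contrast chose the members and nothing is read from these counts. After upper-quartile scaling 4 members passed downwards, without Cct8, and 5 upwards, Cct2, Cct4, Cct5, Cct7 and Tcp1, with log2 fold changes from 0.11 to 0.16, and the share of all calls that were higher went from 40.1% to 53.8%. On the deposited scale those 5 genes had log2 fold changes from 0.02 to 0.07. Whether they passed the threshold, rather than their direction, therefore rests on the scaling.

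Hspd1 (chr1:55077835-55091307 on mm10, a deposited locus that it shares with Hspe1) had 613, 623, 597 and 617 FPKM in the CT26 wild type and 407, 402, 398 and 390.02 FPKM in the knockout. Both groups were tight and far apart, with a log2 fold change of -0.62 (SE 0.02). Hspe1 had 151, 152, 152 and 155 FPKM in the wild type and 96.01, 103, 98.1 and 99.9 FPKM in the knockout. The separation was as clean, and the log2 fold change was -0.62 (SE 0.03). The ratio of Hspe1 to Hspd1 FPKM was 0.249 ± 0.00457 in the wild type and 0.249 ± 0.00982 in the knockout, and its groups overlapped. Relative to the mean CCT subunit, Hspd1 stood at 1.12 to 1.20 in wild type libraries and at 0.742 to 0.792 in knockout libraries.

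Among the CT26 ring subunits, Cct3 (chr3:88297116-88321767) had 445, 469.6, 464 and 489 FPKM in the wild type and 415, 391, 365 and 379.9 FPKM in the knockout. The groups did not overlap, and the log2 fold change was -0.27 (SE 0.05), or -0.18 after upper-quartile scaling. Cct6a (chr5:129765558-129846371, a deposited locus wider than the gene) had 715, 700.02, 712 and 722 FPKM in the wild type and 619, 614, 634 and 656 FPKM in the knockout. All 4 knockout libraries were lower, with a log2 fold change of -0.18 (SE 0.03). Cct8 had 319, 345, 349.8 and 372 FPKM in the wild type and 316, 326, 314 and 308 FPKM in the knockout. Its wild type replicate 1 fell within the knockout's range, and the log2 fold change of -0.13 (SE 0.05) became -0.04 after upper-quartile scaling. Cct4 had 231, 226, 213 and 232 FPKM in the wild type and 235, 235, 233 and 240.1 FPKM in the knockout, groups that touched closely without overlapping. Cct2 (404 ± 8.09 and 409 ± 8.32 FPKM), Cct5 (449.5 ± 13.6 and 456 ± 9.02), Cct7 (1067 ± 41.4 and 1120 ± 48.7) and Tcp1 (568 ± 26.1 and 574 ± 6.56) had overlapping groups. Marker sums moved in CT26 too. The sum of 5 colon markers ranged from 1.75 to 1.88 FPKM in wild type libraries and from 10.8 to 12.2 FPKM in knockout libraries, mostly Krt20 with 1.78 and 10.4 FPKM, while Cdx1, Vil1 and Lgr5 were below 1 FPKM in every library. The 7 mesenchymal markers summed to 4438 to 4824 and 5245 to 5349 FPKM. Most of that sum was Vim, with means of 3802 and 4531 FPKM, whereas the means of Fn1 (149.9 and 126), Cdh2 (29.6 and 18.2), Zeb1 (12.2 and 8.84) and Sparc (141 and 120.1) were lower in the knockout. Of 7 epithelial markers Epcam, Cdh1, Krt8, Krt19 and Cldn4 were below 1 FPKM in every library of the labelled colon carcinoma line. Krt18 was present at 33.7 and 31.6 FPKM, and Krt7 stood at 2.63 and 0.430 FPKM. The part of these shifts in the chaperonin values was not tested.

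**Figure D2:**
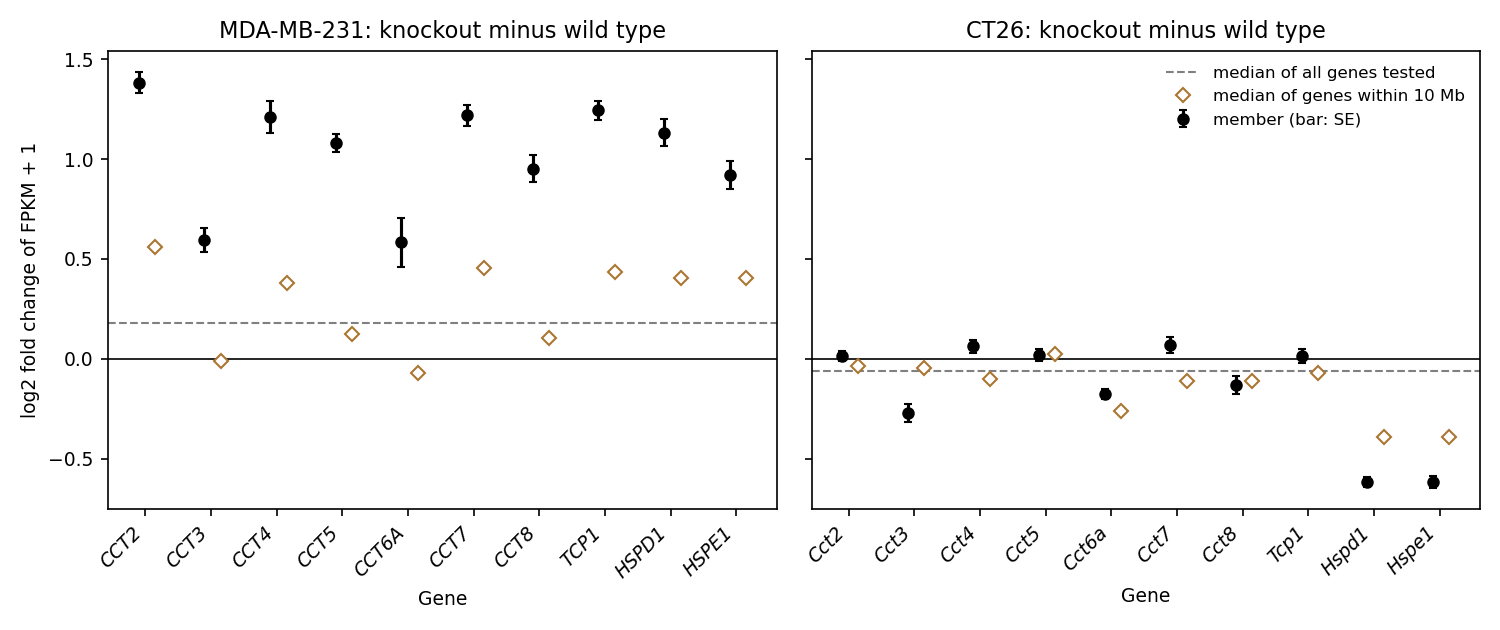
Log2 fold change of FPKM + 1, knockout minus wild type, for each chaperonin gene (black point, bar for the SE), with the median of all genes tested (dashed line) and the median of the genes tested within 10 Mb of the member (open diamond), MDA-MB-231 on the left and CT26 on the right. All MDA-MB-231 members lie between 0.58 and 1.38, above their diamonds, and in CT26 Hspd1 and Hspe1 at -0.62 lie below a diamond that is itself at -0.39.

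The make-up of the CCT ring's transcripts also differed between the groups. FPKM is scaled to transcript length, so each subunit's percent of the summed FPKM of the 8 subunits can be compared. In MDA-MB-231, CCT3 held 12.4%, 12.2%, 12.7% and 12.6% in the wild type and 9.11%, 9.29%, 9.37% and 9.34% in the knockout. CCT6A held 15.2% to 19.3% in wild type libraries, against 11.9% to 13.6% in knockout libraries. Both shares were lower in every knockout library than in any wild type library. CCT7 held 20.7% to 22.3% and 23.3% to 25.2%, CCT2 held 6.20% to 6.80% and 7.75% to 8.83%, and TCP1 held 7.22% to 7.72% and 8.63% to 8.71%. These 3 shares were higher without overlap, while those of CCT4, CCT5 and CCT8 overlapped. The shares of a library are tied, so a lower share of 1 subunit raises those of others. Genes within 10 Mb had median log2 fold changes of -0.01 around CCT3 and -0.07 around CCT6A. The medians were 0.56, 0.45 and 0.43 around CCT2, CCT7 and TCP1, and 0.38, 0.13 and 0.11 around CCT4, CCT5 and CCT8. The part of these surroundings in the shares was not tested.

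In CT26 the same subunits had the widest moves in share. Cct3 held 11.01% ± 0.362 of the summed FPKM in the wild type and 9.39% ± 0.432 in the knockout. Cct6a held 16.8% ± 0.256 and 15.3% ± 0.470, and Cct7 held 25.2% ± 0.626 and 27.1% ± 0.679 (SD, n = 4 and 4 for each). Neither the lower shares of Cct3 and Cct6a nor the higher share of Cct7 overlapped between groups. Cct4 and Cct5 also had higher shares without overlap, by 0.391 and 0.438 percentage points, and Cct2, Cct8 and Tcp1 overlapped. A share does not depend on the scaling of a library. Whether the shares moved alike in the lines was not tested.

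**Figure D3:**
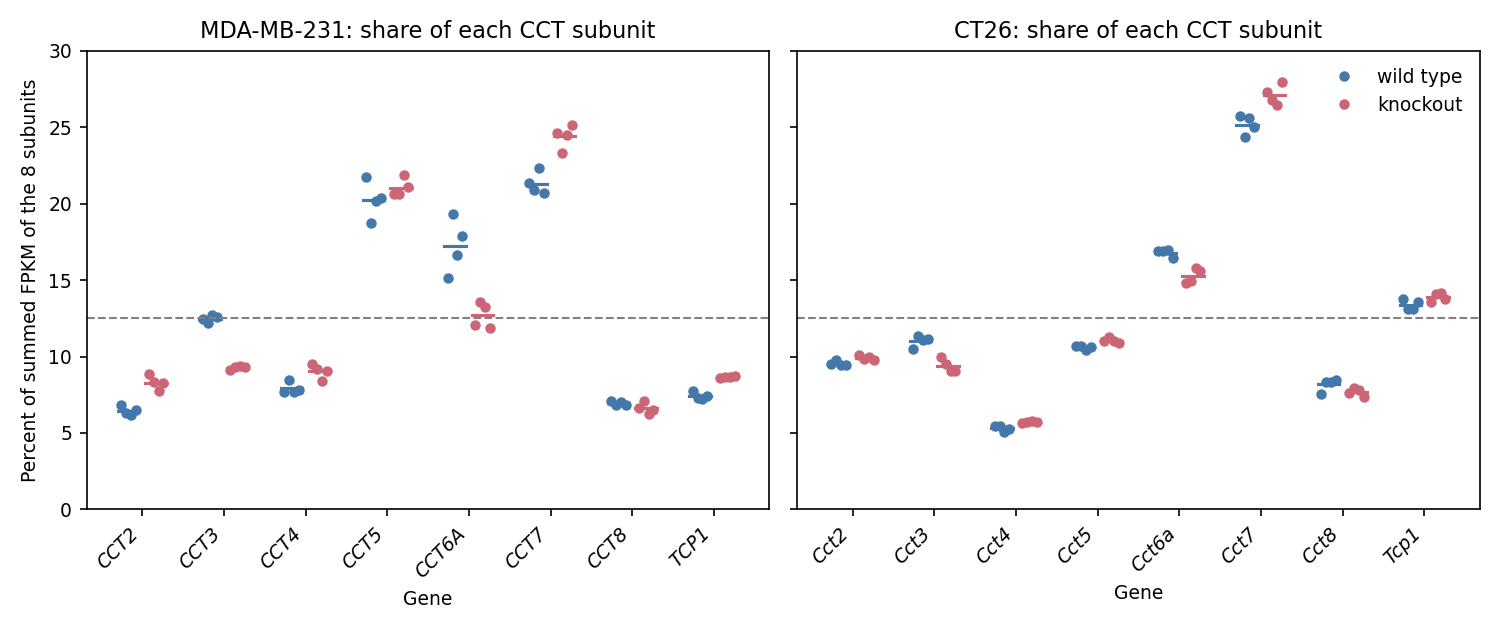
Percent of the summed FPKM of the 8 CCT subunits held by each subunit, with a point for each library and a line at each group mean, wild type in blue and knockout in red; the dashed line marks an equal share. CCT3 and CCT6A are lower and CCT7 is higher in the knockout libraries of each line.

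CCT7 was the most abundant member in each group of both lines. In the MDA-MB-231 wild type the order by mean FPKM was CCT7, CCT5, CCT6A, HSPD1, CCT3, HSPE1, CCT4, TCP1, CCT8 and CCT2. Neighbours in that order had overlapping ranges except HSPD1 above CCT3 and HSPE1 above CCT4. In the knockout HSPD1 stood above CCT6A, CCT2 stood above CCT8, and from HSPE1 through CCT3, CCT4 and TCP1 to CCT2 each gene overlapped the next. In the CT26 wild type the order was Cct7, Cct6a, Hspd1, Tcp1, Cct3, Cct5, Cct2, Cct8, Cct4 and Hspe1, and only Cct3 and Cct5 overlapped as neighbours. In the CT26 knockout Hspd1 came after Cct2 in sixth place, with Cct2, Hspd1 and Cct3 overlapping in turn. Single libraries moved the members together in MDA-MB-231. Wild type replicate 1 was the lowest of its group for 10 of 10 members and knockout replicate 2 the highest of its group for 10 of 10. Their summed FPKM over the whole table were also the lowest wild type value (750840, others 762556 to 787989) and the highest knockout value (927574, others 847947 to 875990). After upper-quartile scaling the counts were 8 of 10 and 4 of 10. Leaving out any 1 library left the median log2 fold change of the MDA-MB-231 members between 1.08 and 1.14.

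The genes around each member on its chromosome were then examined. Copy number was not measured in these data. In CT26, Hspd1 and Hspe1 lie on a chromosome whose transcripts were lower as a whole. The median log2 fold change of the 658 genes tested on mouse chromosome 1 was -0.46, the lowest of any chromosome, with -0.12 for chromosome 16 next. Within 10 Mb of the pair 79 genes were tested, the pair included, with a median of -0.39, and 51 of them passed the limma threshold downwards and 5 upwards. That is 64.6% lower, against 33.4% of all genes tested. Of these genes 21.5% fell further than Hspd1 and 22.8% further than Hspe1, and relative to the window's median the pair stood at -0.23 each. The nearest genes were lower as well. Mob4, a MOB family gene next to Hspe1, had 50.7 ± 1.91 and 38.5 ± 0.568 FPKM (limma adjusted p = 3.5162e-05). Sf3b1, a splicing factor, had 62.5 ± 1.69 and 45.8 ± 2.64 FPKM (limma adjusted p = 7.1737e-05), and Coq10b, a coenzyme Q binding protein, had 21.6 ± 1.58 and 14.6 ± 1.03 FPKM (limma adjusted p = 2.2582e-04). Cct6a lies in a window of 215 genes with a median of -0.26, and relative to it stood at 0.08, so its direction turned. Cct3 stood at -0.22 relative to a window median of -0.05.

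In MDA-MB-231 the members stood above their neighbours in every window. The windows' median log2 fold changes ran from -0.07 around CCT6A to 0.56 around CCT2, and relative to them the members ran from 0.51 for HSPE1 to 0.95 for CCT5. Between 9.3% and 23.3% of the genes in a window had a higher log2 fold change than the member. Around HSPD1 and HSPE1, the pair included, 90 genes had a median of 0.40, with 48 higher and 17 lower by limma. That is 53.3% and 18.9%, against 42.6% and 25.7% of all genes tested. Of the nearest, SF3B1 was higher at 175 ± 9.49 and 279 ± 16.7 FPKM (limma adjusted p = 9.0758e-06). MOB4, the readthrough transcript HSPE1-MOB4 and COQ10B did not pass the threshold, with limma adjusted p-values of 0.844, 0.125 and 0.0528. COQ10B had 17.7 to 18.4 FPKM in the wild type and 15.8 to 17.3 FPKM in the knockout, without overlap, and passed as lower after upper-quartile scaling (log2 fold change -0.34, limma adjusted p = 5.283e-04).

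**Figure D4:**
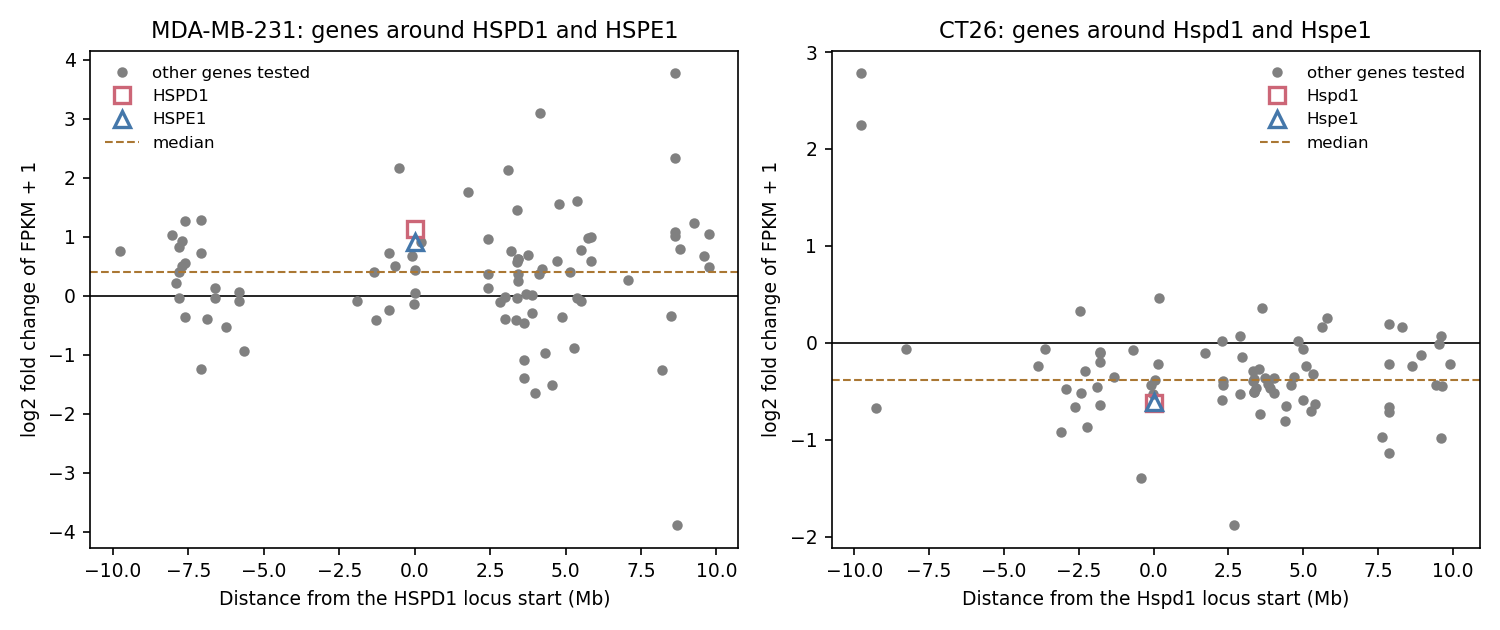
Log2 fold change of FPKM + 1 of each gene tested within 10 Mb of HSPD1 (left, MDA-MB-231) and Hspd1 (right, CT26) against its distance in Mb, with the pair as open symbols and the window's median as a dashed line. The human pair lies above a median of 0.40, and the mouse pair lies at -0.62 in a window centred on -0.39.

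Genes that work with the chaperonins were taken in lists by role. In MDA-MB-231 the prefoldin, mitochondrial and heat-shock lists each held more higher than lower calls, also after upper-quartile scaling and quantile normalization. Of 9 tested subunits of prefoldin, which hands nascent actin and tubulin to CCT, and of its prefoldin-like relatives, 8 were higher and 1 lower (42.6% and 25.7% of all genes tested), with a median log2 fold change of 0.52. PFDN2 had 101, 121, 111 and 138 FPKM in the wild type and 242, 236, 230.5 and 189.7 FPKM in the knockout, without overlap (log2 fold change 0.93, limma adjusted p = 6.3690e-05). PFDN6 and PDRG1 were higher by 0.83 and 0.78 (limma adjusted p = 3.9140e-06 and 5.4466e-06). UXT, a prefoldin-like subunit, was the exception at -0.59 (limma adjusted p = 1.5356e-04). The phosducin-like cochaperones PDCL, PDCL3 and TXNDC9, which bind CCT, did not pass the threshold (limma adjusted p = 0.896, 0.264 and 0.526). Of 3 tested CCT-like genes of the Bardet-Biedl group, MKKS was higher by 0.56 and BBS12 lower at -0.87 (limma adjusted p = 1.1970e-04 and 1.0739e-04). BBS12 was near the floor, with 1.70 to 2.14 FPKM in the wild type and 0.465 to 0.875 FPKM in the knockout. It passed the filter on low values through the wild type libraries alone, so nothing is read from its p-value.

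The mitochondrial partners of HSP60 were mostly higher in the MDA-MB-231 knockout on the deposited scale. Of 11 tested genes of the mitochondrial HSP70 system, with TRAP1 and CLPB, 9 were higher (81.8%, against 42.6% of all genes tested), and 8 after upper-quartile scaling (against 32.8% of all genes), with a median log2 fold change of 0.63. TRAP1, the mitochondrial HSP90, had 50.5, 43.9, 52.7 and 45.03 FPKM in the wild type and 128, 140.2, 151 and 147 FPKM in the knockout. That was a log2 fold change of 1.54 without overlap (limma adjusted p = 3.0176e-07), above that of any chaperonin member. GRPEL1, the nucleotide exchange factor of mitochondrial HSP70, and PAM16, a part of the import motor, were higher by 1.19 and 0.93 (limma adjusted p = 6.1749e-07 and 1.5256e-06). Of 11 mitochondrial proteases 10 were higher, with a median of 0.46. After upper-quartile scaling only 5 of the 11 were called higher, nearer the 32.8% of all genes. YME1L1, an inner membrane protease, was higher by 1.06, CLPX, the unfoldase of the matrix protease ClpXP, by 0.82, and PMPCB, a processing peptidase subunit, by 0.46 (limma adjusted p = 2.2887e-06, 6.0385e-05 and 1.1148e-04).

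In the cytosol, 20 of 27 genes of the HSP70 and HSP90 systems were higher in the MDA-MB-231 knockout (74.1%, against 42.6% of all genes tested) and 4 lower (14.8%, against 25.7%), with a median of 0.53. AHSA1, which stimulates the HSP90 ATPase, had 330.3, 362, 335 and 331 FPKM in the wild type and 902, 922, 946 and 873 FPKM in the knockout, a log2 fold change of 1.42 (limma adjusted p = 1.9199e-08). The heat-inducible HSP90AA1 was higher by 1.37 and BAG3, an HSP70 cochaperone, by 1.41 (limma adjusted p = 1.7779e-07 and 7.3699e-08). The 4 lower genes, named after their values were seen, were HSPA1A, DNAJB1, DNAJB4 and HSPB1, classical heat-shock transcripts among them, and HSPA1B did not pass (limma adjusted p = 0.960). HSPA1A and HSPA1B are near-identical copies whose reads can be split between them.

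On the deposited scale, CCT's own actin and tubulin clients were called about as often as genes in general in MDA-MB-231. Of 14 tested, 6 were higher (42.9%, against 42.6% of all genes) and 4 lower (28.6%, against 25.7%). After upper-quartile scaling 5 were higher and 8 lower, against 32.8% and 33.6% of all genes, so the likeness did not hold for the lower calls. TUBB3, a neuronal beta-tubulin, had 41.4, 36.4, 37.1 and 39.4 FPKM in the wild type and 101, 105, 107 and 103 FPKM in the knockout, a log2 fold change of 1.41 (limma adjusted p = 5.6814e-08). TUBB2A stood at -1.52 and TUBA1B at 0.69 (limma adjusted p = 3.5696e-07 and 1.8821e-06), while the main actins ACTB and ACTG1 did not pass (limma adjusted p = 0.155 and 0.981). Of 15 WD40-repeat and other clients 8 were higher (53.3%) and 3 lower (20%). GNB1, a G protein beta subunit, stood at -1.06, PLK1, a mitotic kinase, at 0.63, and VHL, the ubiquitin ligase subunit, at 0.80 (limma adjusted p = 1.0951e-06, 3.9403e-06 and 5.0017e-06). Of 7 tubulin folding cofactors, which take tubulin on from CCT, 3 were higher (42.9%) and 1 lower, and after upper-quartile scaling 1 was higher and 2 lower. TBCC stood at -0.54, TBCB at 0.41 and TBCE at 0.34 (limma adjusted p = 4.9426e-05, 1.5516e-04 and 0.0130), and TBCE lost its call after upper-quartile scaling (limma adjusted p = 0.306).

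In CT26, 24 of the 96 tested genes of all partner lists, the neighbours of Hspd1 included, were higher and 42 lower. That is 25% and 43.8%, against 22.3% and 33.4% of all genes tested. After upper-quartile scaling 31 were higher and 28 lower, when 29.2% and 25.1% of all genes were. Of 11 mitochondrial HSP70 genes 1 was higher and 5 lower, and 3 were lower after upper-quartile scaling (33.4% of all genes tested were lower). Grpel2, an exchange factor, had 6.27, 6.24, 5.79 and 5.62 FPKM in the wild type and 3.27, 3.46, 3.24 and 3.45 FPKM in the knockout, at -0.68 (limma adjusted p = 2.1017e-05). Dnaja3 stood at -0.26 and Dnajc15 at 0.62 (limma adjusted p = 4.8508e-04 and 1.5464e-04), while Trap1 had overlapping groups at 51.3 ± 2.76 and 52.1 ± 1.28 FPKM (limma adjusted p = 0.676). Of 10 proteases 3 were higher and 6 lower, and 3 and 3 after upper-quartile scaling. Afg3l2 and Lonp1, an inner membrane and a matrix protease, stood at -0.76 and -0.54 (limma adjusted p = 1.4131e-06 and 5.6703e-06), and Mipep at 0.35 (limma adjusted p = 1.8540e-04).

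On the cytosolic side of CT26, 4 of 9 prefoldin subunits were lower and 2 higher, and 2 were lower after upper-quartile scaling. These and the following counts stand beside 22.3% of all genes tested higher and 33.4% lower, and 29.2% and 25.1% after upper-quartile scaling. Pfdn2 stood at -0.62 and Uxt at -1.13 (limma adjusted p = 6.3396e-06 and 5.0323e-05), whereas Vbp1, at -0.17, lost its call after upper-quartile scaling (limma adjusted p = 3.2350e-03 and 0.124). The phosducin-like Txndc9 had 80.4, 73.5, 76.6 and 75.6 FPKM in the wild type and 51.2, 49.7, 48.6 and 51.4 FPKM in the knockout, at -0.60, and Pdcl3 stood at -0.50 (limma adjusted p = 4.4060e-06 and 5.2154e-05). Bbs10 and Bbs12 were higher by 0.69 and 0.62 (limma adjusted p = 1.4633e-04 and 1.3741e-04), and Mkks, at -0.20, lost its call after upper-quartile scaling (limma adjusted p = 0.0752). Of 25 HSP70 and HSP90 genes 7 were higher and 10 lower, and 9 and 6 after upper-quartile scaling. Hsp90aa1 had 1253 ± 27 and 1806 ± 13.9 FPKM, higher by 0.53 (limma adjusted p = 7.7556e-07), and Ahsa1 and Dnajb1 were higher by 0.47 and 0.35 (limma adjusted p = 1.2939e-05 and 7.4179e-05). Of 10 actins and tubulins 3 were higher and 3 lower, with Tuba1a at 0.79 and Tuba4a at -1.44 (limma adjusted p = 6.8479e-07 and 7.1204e-06). Of 15 WD40-repeat and other clients 4 were higher and 6 lower, with Gnb2 at -0.34 and Cdc20, the mitotic activator that CCT folds, at 0.38 (limma adjusted p = 1.7496e-05 and 3.2203e-05). Of 7 tubulin cofactors 2 were higher and 2 lower, with Tbcd at -0.36 (limma adjusted p = 9.2392e-04). The 2 higher ones, Arl2 and Tbcc, lay near the threshold (limma adjusted p = 0.0232 and 0.0349, and 1.037e-03 and 7.837e-03 after upper-quartile scaling). Leaving out 1 library changed their log2 fold changes little, from 0.13 to between 0.11 and 0.15 for Arl2 and from 0.19 to between 0.14 and 0.22 for Tbcc. Arl2 lost its call without wild type replicate 2 or 3 or knockout replicate 1 or 2 (limma adjusted p up to 0.0638), and Tbcc without wild type replicate 2, 3 or 4 or knockout replicate 3 or 4 (limma adjusted p up to 0.0857).

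**Figure D5:**
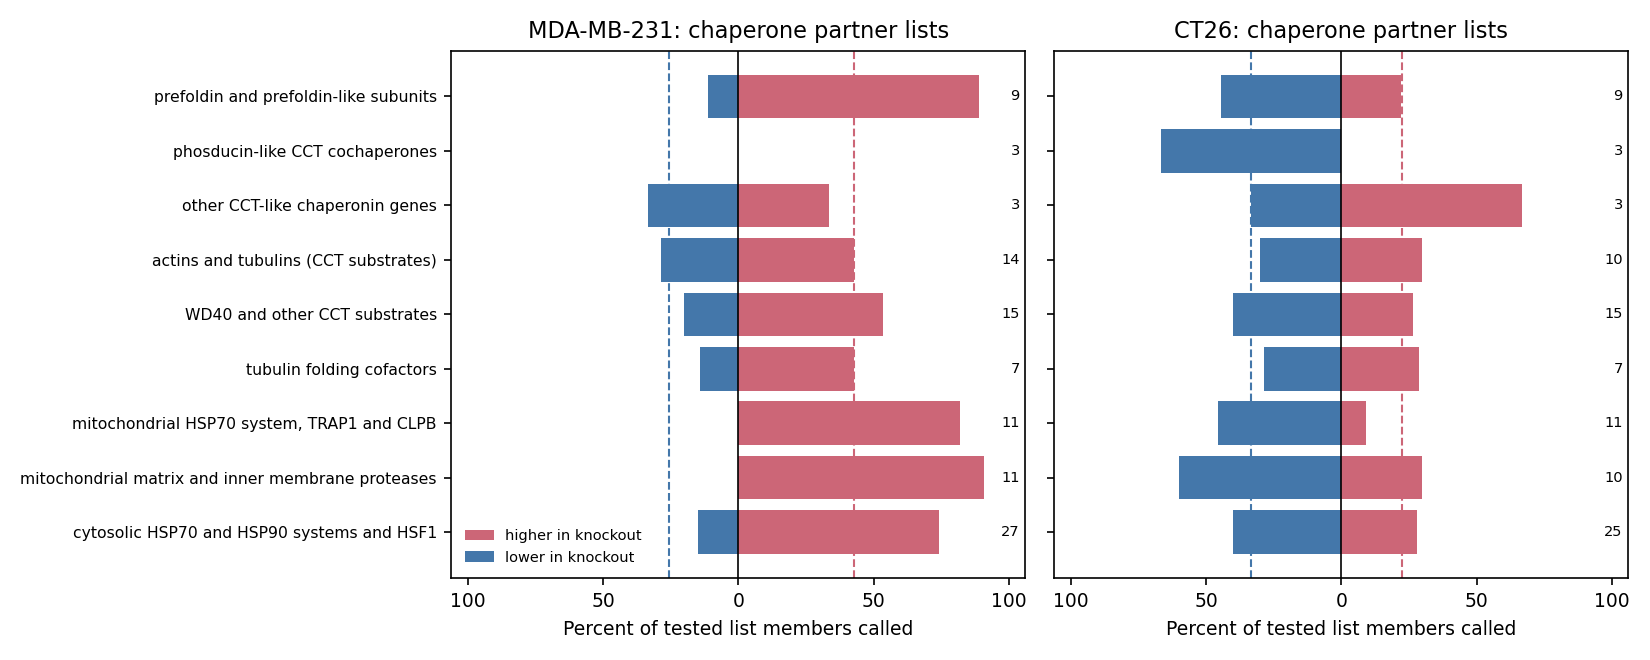
Percent of the tested genes of each partner list that passed the limma threshold, higher in the knockout to the right in red and lower to the left in blue, with the number tested at the right edge and dashed lines at the percent of all genes called. In MDA-MB-231 the prefoldin, mitochondrial and HSP70 and HSP90 bars reach 74.1% to 90.9% higher, the WD40 bar 53.3%, and the bars of actins and tubulins and of tubulin cofactors 42.9%, next to the dashed line at 42.6%. In CT26 the phosducin-like bar, with 3 genes tested, reaches 66.7% lower and the protease bar 60%, past the dashed line at 33.4%.

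Across the 8 libraries of a line, the genes whose log2 level followed the mean of the 8 CCT genes most closely were LEO1, EIF2S1 and ELOA in MDA-MB-231, with Pearson's r of 0.9994, 0.9992 and 0.9990. In that line 2987 of 14450 genes (20.7%) reached an r of 0.95. The 8 points fall in 2 groups and share each library's scaling. EIF2S1, a translation initiation factor subunit, had 187 ± 12.2 and 379 ± 12.1 FPKM. In CT26 the closest were Parp6, Csnk2b and Rbm7, with r of 0.988, 0.983 and 0.967, and 8 of 11341 genes (0.0705%) reached 0.95. Around their group means, the 10 MDA-MB-231 members gave a positive correlation in 45 of 45 pairs, with a median r of 0.714, and the CT26 members in 34 of 45, with a median of 0.325. These values describe libraries that share their scaling and carry no test.

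Several members share sequence or position with other genes. The whole HSPE1 gene of 3464 bases lies within the annotated span of HSPD1 on the opposite strand, and no source used here says whether counting used the strand. TCP1 overlaps ACAT2, a thiolase of the opposite strand, by 558 bases, and ACAT2 itself went from 38.3 to 124 FPKM in MDA-MB-231. CCT4 overlaps COMMD1 by 81 bases. The human table also lists rows named as pseudogene copies of the members. The 26 HSPE1 copies together held 11.3% of the parent's FPKM in the wild type and 10% in the knockout, and those of the other members 1.38% or less. How reads shared with copies were assigned is not stated, so the level of HSPE1 is the less certain.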

How the data were processed

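Total RNA of 16 libraries (4 wild type and 4 knockout in each of 2 lines) had been sequenced. Per the submitters' processing notes, the authors used bcl2fastq 2.18, STAR 2.5.4a, Cufflinks 2.2.1 and Cuffdiff with genome builds hg38 and mm10, and deposited FPKM per gene and library in 1 table per line. No source used here gives the annotation release, whether strand was used, or how Cuffdiff was set. Genes that the authors' status column marks as having too much data (13 in MDA-MB-231, 210 in CT26) or as failed (2 in CT26) were not tested.

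Values were analysed as log2(FPKM + 1), which understates the change of low genes. A gene was tested where 4 or more of the 8 libraries reached 1 FPKM. The group was the only term in limma 3.58.1 (R 4.3.3), run with its trended variance, and two-sided p-values were adjusted by Benjamini-Hochberg across every tested gene and called below 0.05. On simulated data with 100 genes changed by 0.5 and 100 by 1 on the log2 scale, 41% and 79% were called over the 14450 MDA-MB-231 genes and 70% and 90% over the 11341 CT26 genes. The real fits called far larger shares, 68.2% and 55.8% of all genes, which makes the adjustment less strict. The simulated rates therefore do not carry over to these fits. The members and all lists were chosen with earlier results of these data known. Named genes were the 10 members, the nearest neighbours of HSPD1, the 3 genes most correlated with the mean CCT level, and the targeted gene. Per partner list and line, up to 3 genes with the smallest adjusted p among those called without overlap of the groups were named too. Not all of the allowed list genes are described. ACTB, ACTG1, HSPA1B, Trap1 and the 4 lower heat-shock genes were added after their values were seen. UXT, PDCL, PDCL3 and TXNDC9 in MDA-MB-231 were also named outside this rule. Where a symbol had several entries, the one with the highest mean was used. Gene coordinates came from GENCODE 29 for human and from the deposited loci, with starts made 1-based, for mouse. Alternatives were other pseudocounts (0.1 and 5), other filters (none, or at least 5 FPKM), upper-quartile scaling, quantile normalization, a replicate block, leaving out each library, and centring on the genes within 10 Mb. Summaries used pandas 2.3.3 and numpy 2.4.6 in Python 3.11.15, and plots matplotlib 3.10.9. Depth was taken only as the ratio of low FPKM values, below 0.5, between libraries.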

Additional observations from a re-analysis of the deposited data

Results flagged for a closer look

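In the MDA-MB-231 wild type, replicate 1 lay far below its group for 2 members. It had 213.858 FPKM of CCT3, where the others had 245.706 to 250.393, and 121.626 FPKM of CCT8, where the others had 135.626 to 137.322. In all, 40 groups of 4 libraries were examined, and chance alone marks about 5% of them.

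For 4 members every knockout library moved 1 way in MDA-MB-231 and the opposite way in CT26. Of all genes tested, 39.1% had groups apart upwards in MDA-MB-231 and 31.1% had groups apart downwards in CT26. How many genes did both was not counted. These contrasts chose the members, so nothing is read from the count of 4. The log2 fold changes were 0.5953 and -0.2683 for CCT3, 0.5834 and -0.1755 for CCT6A, 1.1322 and -0.6161 for HSPD1, and 0.9190 and -0.6152 for HSPE1. The difference between the lines was not tested, because the tables were normalized separately.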

How the results depend on the processing

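The MDA-MB-231 members kept their direction under the 16 alternatives run, and all 10 passed the limma threshold in the 15 that gave calls. Their median log2 fold change of 1.11 became 0.89 after both upper-quartile scaling and quantile normalization, and 0.79 when centred on the genes within 10 Mb. Leaving out 1 library gave 1.08 to 1.14. In CT26 the median of -0.06 became 0.0352 after upper-quartile scaling and 0.0222 when centred, and leaving out 1 library gave -0.08 to -0.03. The count of CT26 members higher went to 5 after upper-quartile scaling and 3 after quantile normalization, and that lower stayed between 4 and 5. Cct6a turned to 0.0829 when centred. CD274 in MDA-MB-231 passed the threshold after upper-quartile scaling (-0.40, limma adjusted p = 0.0157) and quantile normalization (-0.32, limma adjusted p = 0.0425). In CT26, Tbcc lost its call in 7 alternatives, Arl2 in 5, and Vbp1 and Mkks in 2 each, as did TBCE in MDA-MB-231. Of the neighbours of HSPD1, MOB4 turned from 0.04 to -0.17 after upper-quartile scaling and -0.14 after quantile normalization, and leaving out 1 library gave -0.10 to 0.14. COQ10B gained a lower call in 5 alternatives and HSPE1-MOB4 a higher one without wild type replicate 4. The cause was not tested.

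Replicate numbers are shared between groups. In MDA-MB-231 same-numbered libraries did not deviate together (r from -0.036 to 0.004). In CT26 their r was low, from 0.027 to 0.078, but each lay above that of every differently numbered pair (-0.059 to 0.021). Whether same-numbered libraries were paired was not tested. With a replicate block 9648 genes were called in MDA-MB-231 (9860 without) and 6031 in CT26 (6327 without), with all 10 human members higher and 4 mouse members lower. Depth is known only as a ratio, so counting error could not be set for single values, and the MDA-MB-231 knockout was the shallower group.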
